A study of Sus scrofa with 50 samples.

Results

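The genes described here store iron, recycle it from haem, move it across membranes or take part in making iron-sulphur clusters. They are 9 of 35133 genes measured in the series, of which 14532 carry a Swiss-Prot protein entry. Each is the summed TPM (the usual length-normalised abundance of a transcript within a library) of all assembled transcripts whose best protein match is the entry named, and is called by that entry. They are ferritin heavy chain (FRIH), ferritin light chain (FRIL), haem oxygenase 1 (HMOX1), transferrin receptor 1 (TFR1), ferroportin (S40A1), hepcidin (HEPC), the BolA-like protein BOLA2, the mitochondrial carrier SLC25A39 (S2539) and lactotransferrin (TRFL). They were chosen by name with the tissue levels and type differences of these same libraries already known. Their values are therefore given as a description, with standard errors and without p-values.

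The libraries came from Korean minipigs (Sus scrofa) of the ET type (S0235, S0242, S0276, S0309 and S0326) and of the L type (S0349, S0355, S0377, S0384 and S0385). Each of the 10 animals gave heart, kidney, liver, lung and spleen, which makes 50 libraries of stranded mRNA. The labels give no treatment, age or sex, and the number of reads behind each library is unknown, so no counting interval can be attached to a TPM. The design asks how the transcriptomes of the types differ.

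Iron is toxic when free, so cells hold it in ferritin, a shell built of heavy chains, which oxidise iron, and light chains, which help it settle as a mineral core. Macrophages of the spleen and liver take up worn red cells, open the haem ring with haem oxygenase and return the iron to plasma through ferroportin. The liver hormone hepcidin binds ferroportin and has it degraded, while most cells take up iron bound to transferrin through transferrin receptor 1. In mitochondria iron is built into haem and iron-sulphur clusters.

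Between 1 and 6 transcripts stood behind each gene, 22 in all. FRIL (99.8% of its TPM), HMOX1 (99.5%) and S2539 (94.6%) each rested almost wholly on a single transcript that spans the protein, and S40A1 and TRFL had only 1 transcript each. FRIH was split between a transcript of 2779 nt with 58.2% of its TPM and another of 1042 nt with the rest. The longer one matches 148 residues of the chicken protein at 91.2% identity. The shorter one matches 180 residues of the human protein at 98.3%. TFR1 was the least uniform: the transcript that matches all 768 residues of the pig protein held 45.3% of the TPM, and a pair that matches only its last 80 residues held 38.1% and 16.6%. HEPC was matched over 55 and 29 residues by transcripts with 72.2% and 27.8% of its TPM. BOLA2 rested to 86.4% on a transcript of only 512 nt that matches 65 residues of the human protein. By symbol, 8 of the 9 genes were matched to RefSeq's table for the pig build Sscrofa11.1, all but BOLA2; HMOX1 has no chromosome in it, and the transcripts themselves were not placed on the genome here. FTH1 (FRIH) lies on chromosome 2 from 9535051 to 9537979 and FTL (FRIL) on chromosome 6 from 54231121 to 54232756. HAMP (HEPC) is also on chromosome 6, from 44785863 to 44787303. TFRC (TFR1) lies on chromosome 13 from 133976765 to 133997554, and LTF (TRFL) on the same chromosome from 29413886 to 29445751. SLC40A1 (S40A1) is on chromosome 15 from 94140635 to 94161793 and SLC25A39 (S2539) on chromosome 12 from 18913261 to 18919761.

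The kidney library of ET-type S0235 stood apart. Its lymphocyte markers summed to 2353 TPM against 15.5 to 61.4 in the other 9 kidneys, and its kidney markers to 127 TPM against 1798 to 8505. It was left out of every kidney group below and its values are given apart. In the remaining libraries of heart, kidney, liver and lung the markers of the labelled organ were present. All 8 hepatocyte, all 8 heart muscle, all 7 lung epithelium and all 8 matched kidney markers exceeded 1 TPM on average in both types. Spleen had no marker list of its own, and the kidney sum reached 1750 TPM in an ET-type liver. Haemoglobin chains took 21.4% ± 9.46 (SD, n = 5) of the TPM in ET-type spleens and 7.14% ± 6.77 in L-type spleens. Heart muscle markers summed to 24254 to 72548 TPM in ET-type hearts and to 72670 to 87674 TPM in L-type hearts, without overlap. In whole tissue, fewer cells of a kind and less RNA per cell cannot be told apart.

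**Figure D1:**
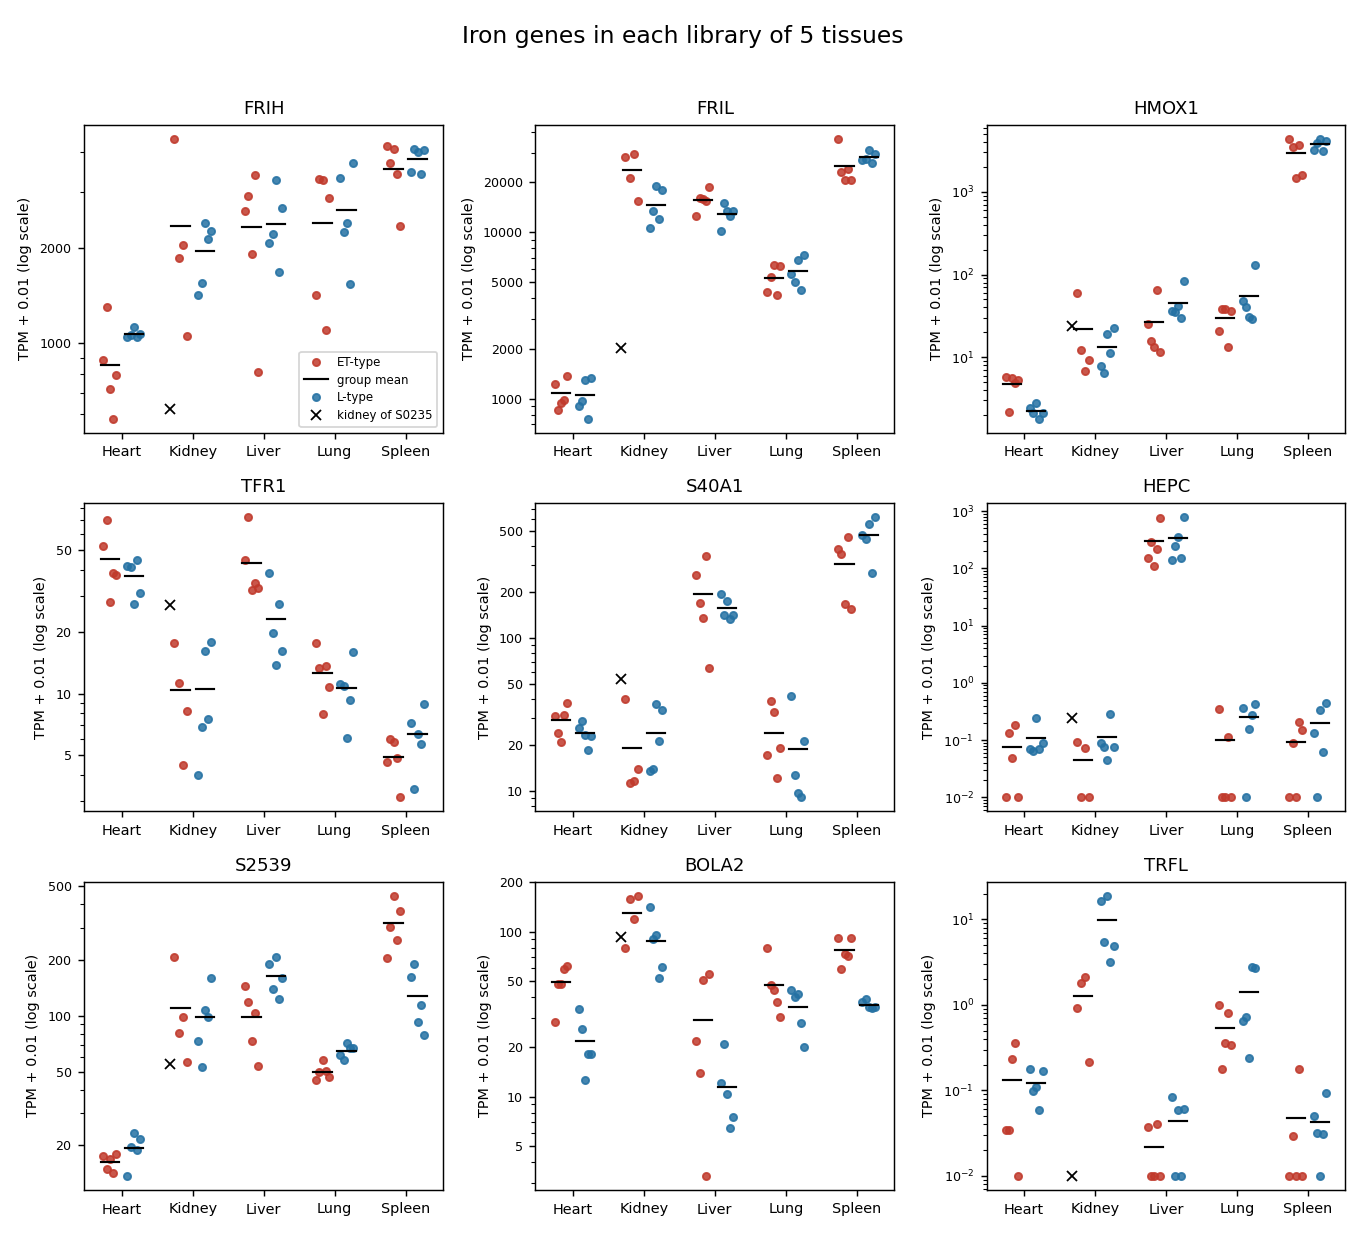
TPM + 0.01 on a log scale of the 9 iron genes in each library, by tissue; red points are ET-type animals, blue points L-type animals, bars the mean of a group, and the cross the kidney library of S0235 (not part of the group mean). HMOX1 and S40A1 are highest in spleen, HEPC is at 110 TPM or more in every liver and at 0.442 TPM or less elsewhere, TFR1 is highest in heart and liver, and BOLA2 points of the ET type lie above those of the L type in spleen.

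Ferritin was among the most abundant of these mRNAs in every tissue, and its chains differed in how they were spread over the organs. FRIL was highest in spleen (26678 ± 4975 TPM, SD, n = 10), followed by kidney (18642 ± 6807, n = 9), liver (14312 ± 2393), lung (5590 ± 1077) and heart (1063 ± 219). Spleen exceeded kidney in 6 of 9 animals and kidney exceeded liver in 6 of 9, with ranges that overlapped. In the L type alone, every spleen (26178 to 31341 TPM) lay above every kidney (10622 to 18931 TPM). ET-type spleens (20578 to 36552 TPM) and kidneys (15502 to 29697 TPM) overlapped. Liver exceeded lung and lung exceeded heart in 10 of 10 animals, with ranges that did not overlap. FRIH spanned far less, from 964 ± 216 TPM in heart through 2124 ± 960 in kidney, 2352 ± 781 in liver and 2514 ± 917 in lung to 3676 ± 563 in spleen. Kidney, liver and lung overlapped widely for the heavy chain, and spleen was above lung in 9 of 10 animals.

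The balance of the chains therefore differed between organs. FRIH is here the sum of both its transcripts, and a ratio to either transcript alone would be higher. The ratio of FRIL to FRIH TPM was 1.17 ± 0.378 (SD, n = 10) in heart and 2.43 ± 0.701 in lung, but 7.33 ± 1.14 in spleen, 7.44 ± 5.60 in liver and 9.42 ± 3.36 (n = 9) in kidney. All 10 livers had a higher ratio than any lung, and each animal's lung had a higher ratio than its heart. The liver ratio ran from 4.10 to 22.9, and its top value belonged to ET-type S0326, whose liver held 814 TPM of FRIH and 18636 TPM of FRIL. In the S0235 kidney FRIL was 2013 TPM, FRIH 623 TPM and their ratio 3.23, below every other kidney on all 3 measures.

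Between the types the ferritin chains differed little beside their spread. Kidney FRIL was 28400, 21271, 29697 and 15502 TPM in ET-type S0242, S0276, S0309 and S0326, and 10622, 13478, 18931, 11939 and 17940 TPM in L-type S0349, S0355, S0377, S0384 and S0385. Of the ET-type kidneys 3 lay above all L-type kidneys and S0326 lay among them. The log2 difference, ET-type minus L-type, was 0.69 ± 0.35 (SE), and with the S0235 kidney kept it was -0.01. All log2 differences are on log2(TPM + 1), which understates those of low genes. In spleen the difference was -0.22 ± 0.20 for FRIL and -0.13 ± 0.18 for FRIH, and both signs depended on scaling: they were 0.34 and 0.43 when libraries were scaled by median ratios, and 0.03 and 0.12 with haemoglobin left out. Heart FRIH was spread from 579 to 1301 TPM in the ET type and from 1046 to 1130 TPM in the L type, so that the difference of -0.38 ± 0.21 came with very unequal spreads.

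HMOX1, the inducible enzyme that opens haem to biliverdin, carbon monoxide and iron, was a spleen transcript. Spleens held 3349 ± 1044 TPM (SD, n = 10), from 1490 to 4416. Lung held 42.6 ± 32.2, liver 35.9 ± 23.5, kidney 17.3 ± 17.0 (n = 9) and heart 3.50 ± 1.67 TPM. The median of the spleens was 95.7 times that of the lungs, and spleen was highest in 10 of 10 animals. Lung and liver overlapped and took either order in single animals, whereas every kidney exceeded every heart. The kidney of S0235 held 24.0 TPM, inside the range of the other kidneys.

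HMOX1 varied strongly among animals outside the spleen. Heart HMOX1 was 5.83, 2.15, 5.56, 4.87 and 5.32 TPM in the ET-type animals in the order S0235, S0242, S0276, S0309 and S0326. In the L-type hearts it was 2.41, 2.13, 2.81, 1.79 and 2.10 TPM in the order S0349, S0355, S0377, S0384 and S0385. ET-type hearts were higher in 4 of 5 animals, and S0242 lay among the L-type hearts. The difference was 0.78 ± 0.22, and 0.98 without S0242. The summed macrophage markers, 12 of 12 matched, ran from 233 to 443 TPM in ET-type hearts and from 85.8 to 313 TPM in L-type hearts; the part of these and of the heart muscle markers in the HMOX1 difference was not tested.

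In kidney the difference was 0.29 ± 0.58, and -0.35 without S0242. In liver, lung and spleen it was negative as deposited. Liver HMOX1 was 25.2, 15.9, 13.5, 65.8 and 11.5 TPM in the ET type and 35.8, 35.0, 41.6, 29.6 and 84.6 TPM in the L type, a difference of -0.96 ± 0.45. All ET-type livers but that of S0309 lay below the L-type range. In lung the ET-type values reached from 13.2 to 38.8 TPM and the L-type values from 28.8 to 130 TPM, the last from S0385, with a difference of -0.75 ± 0.42. Macrophage markers of the lung summed to 202 to 777 TPM in ET-type and 775 to 2459 TPM in L-type animals, and their part in the HMOX1 values was not tested. In spleen the difference was -0.47 ± 0.30, and 0.09 under median-ratio scaling.

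Ferroportin (S40A1), the only known exporter of cellular iron, was also highest in spleen, with liver next. Spleens held 387 ± 154 TPM (SD, n = 10) and livers 175 ± 76.9 TPM; the ranges overlapped, yet spleen was above liver in 10 of 10 animals. Heart (26.5 ± 5.75), kidney (21.9 ± 11.9, n = 9) and lung (21.5 ± 12.1 TPM) lay below every liver and overlapped one another. The S0235 kidney had 54.1 TPM, above the other kidneys, which reached 40.2. Spleen S40A1 was 380, 354.9, 168, 458 and 155 TPM in the ET type and 469, 447, 554, 266 and 616 TPM in the L type. ET-type S0276 and S0326 had the lowest values, and the same spleens had the lowest HMOX1 (1490 and 1622 TPM) and the highest haemoglobin share (33.5% and 29.1%). The spleen difference in S40A1 was -0.71 ± 0.33 as deposited, -0.46 with haemoglobin left out and -0.15 under median-ratio scaling. Macrophage markers of the spleen summed to 14884 to 27413 TPM in the ET type and 20332 to 26654 TPM in the L type. Nearly all of it was C1QA, C1QB and C1QC. Of the 12 markers, 10 were lower and 2 higher in the ET type as deposited. Their median log2 difference was -0.17, against -0.47 for all genes, and the part of these markers was not tested. In the other organs the differences lay between -0.39 ± 0.44 in kidney and 0.44 ± 0.42 in lung.

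Hepcidin (HEPC), the hormone that removes ferroportin from the cell surface, was a liver transcript. Liver values were 151, 289, 110, 217 and 763 TPM in the ET-type animals and 142, 248, 347, 154 and 784 TPM in the L-type animals. ET-type S0326 and L-type S0385 stood far above the rest of their groups, and the groups covered the same range. The difference was -0.18 ± 0.56. It became 0.10 without ET-type S0276 and 0.20 without L-type S0385. No library of another tissue exceeded 0.442 TPM, and the S0235 kidney held 0.233.

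Transferrin receptor 1 (TFR1), which brings transferrin-bound iron into the cell, was highest in heart and lowest in spleen, the ends that HMOX1 had the other way round. Its level was 41.3 ± 12.7 TPM (SD, n = 10) in heart, 33.2 ± 17.0 in liver, 11.6 ± 3.53 in lung, 10.4 ± 5.51 in kidney (n = 9) and 5.59 ± 1.73 in spleen. Heart was highest in 8 animals and liver in 2, with overlapping ranges, and liver exceeded lung in 10 of 10. Lung exceeded kidney in only 5 of 9 animals. The S0235 kidney, at 27.2 TPM, was above the other kidneys, whose highest value was 17.8.

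Liver TFR1 was 44.8, 72.6, 32.0, 34.7 and 32.6 TPM in the ET type and 38.8, 19.8, 13.7, 27.2 and 16.2 TPM in the L type. All ET-type livers exceeded 4 of the 5 L-type livers, and L-type S0349 lay inside the ET-type range. The difference was 0.90 ± 0.32, the largest of TFR1 in the 5 tissues. The 5 livers of the ET type thus had more TFR1 and, with the exception of S0309, less HMOX1 than most livers of the L type. In kidney, lung and spleen the value depended on which transcripts were counted. With only the transcript that spans the whole protein, a setting chosen after seeing the data, the kidney difference was -0.51 instead of 0.03 ± 0.46, the lung difference -0.40 instead of 0.24 ± 0.26 and the spleen difference -0.89 instead of -0.29 ± 0.25. Under median-ratio scaling of the summed transcripts the spleen difference was 0.18.

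S2539 is a carrier of the inner mitochondrial membrane that imports glutathione, which mitochondria need to keep iron-sulphur proteins intact. It averaged 222 ± 121 TPM (SD, n = 10) in spleen, 132 ± 48.2 in liver, 104 ± 50.3 in kidney (n = 9), 57.5 ± 9.27 in lung and 17.8 ± 3.16 in heart. Every lung exceeded every heart, whereas spleen, liver and kidney overlapped. Spleen was highest in 6 animals, namely every ET-type animal and L-type S0355. Liver was highest in 3, L-type S0349, S0377 and S0384, and kidney in 1, L-type S0385.

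The types lay apart in spleen and in lung, in opposite directions. Spleen S2539 was 206, 302, 446, 258 and 367 TPM in the ET type and 162, 190, 92.3, 115 and 78.5 TPM in the L type. Every ET-type spleen was above every L-type spleen, and the closest pair was ET-type S0235 at 206 and L-type S0355 at 190. The difference was 1.33 ± 0.27, a ratio of means of 2.47. It was 1.57 with haemoglobin left out and 1.88 under median-ratio scaling. In lung the values were 45.2, 50.0, 57.8, 50.4 and 46.5 TPM in the ET type and 61.4, 58.0, 71.2, 67.3 and 67.2 TPM in the L type. Here every ET-type animal was lower, by a narrow margin between S0276 and S0355, and the difference was -0.38 ± 0.12, or -0.22 under median-ratio scaling. Liver S2539 was also lower in the ET type (98.9 ± 36.4 against 164 ± 35.2 TPM, n = 5 each, a difference of -0.78 ± 0.28), but the groups overlapped. Heart (-0.22 ± 0.17) and kidney (0.09 ± 0.41) differed less than that.

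Haemoglobin moved with S2539 in the spleen. The 5 ET-type spleens had the same order in both measures, from S0235 with 11.0% of its TPM in haemoglobin chains to S0276 with 33.5%. Among the L-type spleens the lowest haemoglobin shares, 0.548% and 1.24%, went with the lowest S2539 values, and the highest share, 14.9%, with the highest S2539. The ET-type spleen of S0235, at 11.0%, had 206 TPM of S2539, and the L-type spleens of S0349 and S0355, at 13.6% and 14.9%, had 162 and 190 TPM. Erythroid markers, 7 of 12 matched, summed to 109798 to 335017 TPM in ET-type and 5459 to 149011 TPM in L-type spleens, nearly all of it haemoglobin. Without haemoglobin the sums were 584 to 2129 and 27.9 to 855 TPM, most of it AHSP. GLPA averaged 13.1 ± 10.7 TPM in ET-type and 3.56 ± 3.35 TPM in L-type spleens (SD, n = 5 each), and SPTB1 0.743 ± 0.636 and 0.188 ± 0.0766 TPM. EPB42 averaged 8.15 ± 2.003 and 7.60 ± 1.30 TPM and ANK1 0.545 ± 0.256 and 0.502 ± 0.0995 TPM. Their part in the S2539 difference was not tested.

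**Figure D2:**
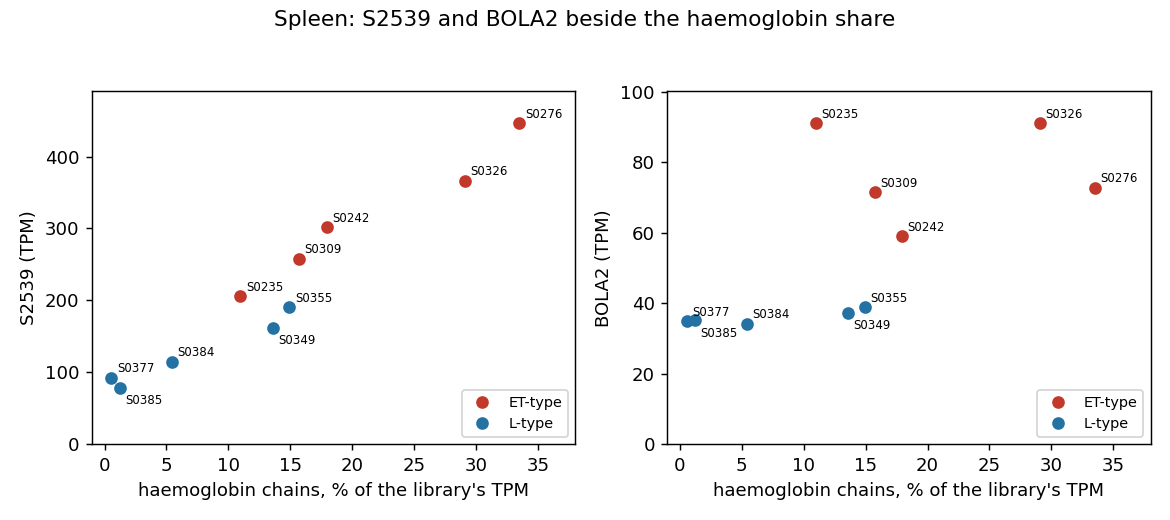
Spleen libraries, with S2539 (left) and BOLA2 (right) in TPM against the share of haemoglobin chains in the library's TPM in percent; each point is 1 animal, red for ET-type and blue for L-type. S2539 rises along the haemoglobin share in the ET-type spleens, and in the L-type spleens apart from the lowest pair, S0377 and S0385, whereas BOLA2 is between 34.2 and 38.9 TPM in every L-type spleen and between 59.1 and 91.0 TPM in every ET-type spleen.

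BOLA2 works with a monothiol glutaredoxin to hand on iron-sulphur clusters in the cytosol. It was highest in kidney (107 ± 41.0 TPM, SD, n = 9), then spleen (56.6 ± 23.5, n = 10), lung (41.3 ± 15.8), heart (35.4 ± 17.8) and liver (20.2 ± 18.3). Kidney exceeded spleen in all 9 animals compared and heart exceeded liver in 9 of 10, while spleen, lung and heart overlapped. Kidney S0235 held 92.8 TPM, like the other kidneys.

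BOLA2 was higher on average in the ET type in all 5 tissues, under median-ratio scaling and with haemoglobin left out too. Spleen BOLA2 was 91.0, 59.1, 72.8, 71.5 and 91.0 TPM in the ET type and 37.3, 38.9, 34.9, 34.2 and 35.1 TPM in the L type. The L-type spleens lay close together and the lowest ET-type spleen, S0242, was well above them. The difference was 1.06 ± 0.15, or 1.30 with haemoglobin left out and 1.60 under median-ratio scaling, and it stayed between 0.99 and 1.15 when any single animal was left out. Heart BOLA2 was 28.4, 48.2, 48.2, 59.3 and 61.6 TPM in the ET type and 33.8, 25.7, 12.7, 18.0 and 18.1 TPM in the L type. ET-type S0235 was below L-type S0349 there, and the other ET-type hearts were above all L-type hearts, for a difference of 1.17 ± 0.28. The mean was also higher in the ET type in kidney (0.59 ± 0.34), liver (0.87 ± 0.63) and lung (0.42 ± 0.28), with overlapping groups.

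Most BOLA2 came from a transcript of 512 nt, so the share of short transcripts was measured beside it. Transcripts under 1000 nt took 27.3% to 31.9% of the TPM in ET-type spleens and 24.8% to 28.1% in L-type spleens. The same shares were 26.9% to 30.4% and 25.3% to 30.3% in heart. Ribosomal proteins, 83 entries, took 10.4% to 14.3% of the TPM in ET-type and 7.39% to 9.36% in L-type hearts, without overlap, but 10.6% to 12.7% and 10.1% to 13.2% in spleens. The part of these shares in the BOLA2 difference was not tested.

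Lactotransferrin (TRFL), an iron-binding protein of secretions and of neutrophil granules, was low everywhere and highest in kidney. Kidneys averaged 5.97 ± 6.86 TPM (SD, n = 9) and lungs 0.962 ± 0.962 TPM (n = 10), and the means of heart, spleen and liver were 0.117, 0.0354 and 0.0229 TPM. Kidney values were 0.899, 1.78, 2.13 and 0.205 TPM in ET-type S0242, S0276, S0309 and S0326. In the L type they were 16.4, 5.40, 18.9, 3.16 and 4.89 TPM. The lowest L-type kidney, S0384, exceeded the highest ET-type kidney, S0309, and the difference was -2.07 ± 0.50. The S0235 kidney was listed at 0, and keeping it gave -2.28. Neutrophil markers (7 of 12 matched) summed to 23.0 to 47.3 TPM in the ET-type kidneys and 22.1 to 37.6 TPM in the L-type kidneys. Markers of glandular epithelium (5 of 9 matched) summed to 88.1 to 585 and 172 to 895 TPM, and 2 of them, PERL and BPIB1, had means under 0.1 TPM. Both kinds of marker sum overlapped between the types, and their part was not tested.

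Across tissues, 7 of the 9 genes reached a mean of 1 TPM in heart, lung and spleen and 8 did in kidney and liver, the rest being HEPC or TRFL. In spleen BOLA2 and S2539 passed an adjusted p of 0.05 (limma, Benjamini-Hochberg), where 22.2% of all genes passed, and the same 2 genes had types that did not overlap, where 15.8% of all genes did. TFR1 passed in spleen too when only its full-length transcript was counted, a setting chosen after seeing the data, where 22.2% of all genes passed. S2539 did not pass without ET-type S0276 or S0326 or L-type S0377 or S0385, where 1.05%, 0.462%, 0.174% and 0.214% of all genes passed. No gene of the 9 passed in heart, kidney, liver or lung, where 0.0238%, 0.00376%, 0.00933% and 0.213% of all genes did. Types did not overlap for TRFL in kidney and S2539 in lung, beside 2.92% and 4.2% of all genes there, and for none in heart (4.68%) and liver (1.08%). With all 10 hearts 5 genes passed, and without ET-type S0242 there were 2162, with HMOX1 and BOLA2 among these. Since the genes were chosen with such differences known, nothing is read from these counts.

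The median log2 difference of all genes was -0.47 in spleen, -0.28 in kidney, -0.15 in lung, -0.06 in liver and 0.09 in heart. Against it, the medians of the tested iron genes were -0.22, 0.10, -0.14, -0.02 and 0.23. In spleen FRIH, FRIL, TFR1, BOLA2 and S2539 lay above the median of all genes, S40A1 lay below it and HMOX1 was level with it. Median-ratio scaling moved the median of all spleen genes to -0.02 and the share of passing genes that were higher in the ET type from 3.13% to 59.0%.

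**Figure D3:**
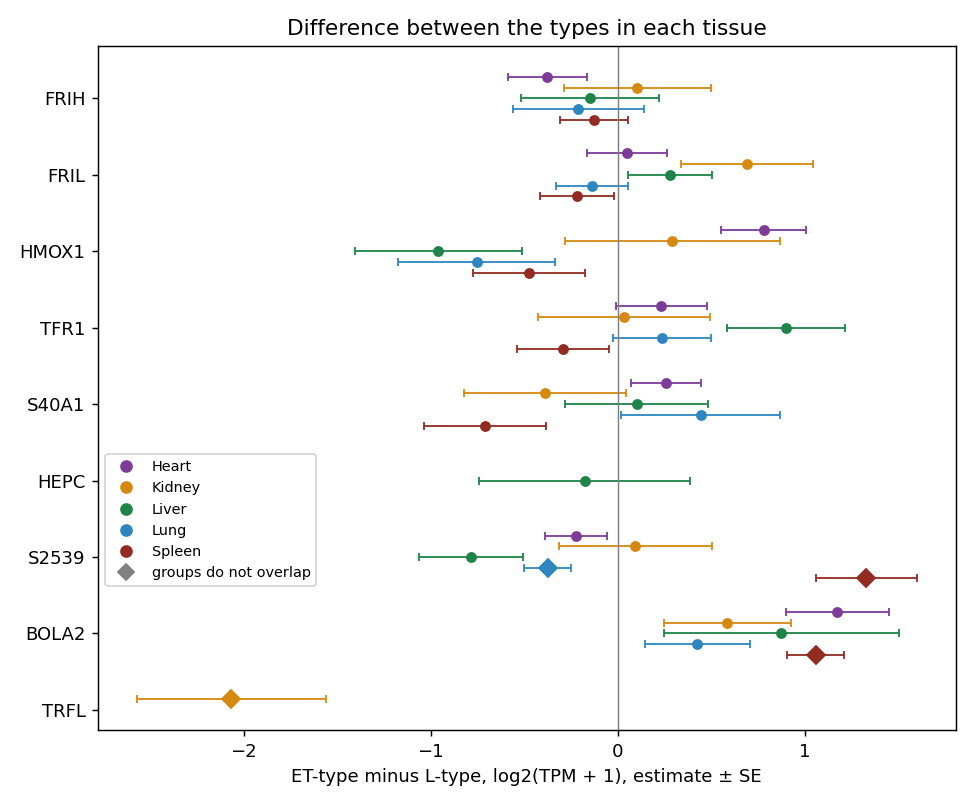
Log2 difference of ET-type minus L-type animals on log2(TPM + 1) for each iron gene, with points for the estimate and bars for ± 1 SE, coloured by tissue; diamonds mark types whose values do not overlap, and genes under a mean of 1 TPM in a tissue are not drawn. BOLA2 lies to the right of 0 in all 5 tissues, S2539 lies on the right in spleen and on the left in lung, and TRFL in kidney is the farthest from 0.

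The wider pathway was described with 95 further iron genes, also chosen with earlier results of these data known. Their counts and p-values are therefore descriptive. Of the 95, 88 were matched to entries and measured. Of these, 17 were higher in liver (19.3%, against 7.95% of all genes), 13 in spleen (14.8% against 9.6%), 15 in lung (17% against 26.6%), 6 in heart (6.82% against 5.46%) and 4 in kidney (4.55% against 12.8%). A gene counted as higher in a tissue if that tissue had its top mean of log2(TPM + 1), which need not be the top mean TPM, exceeded the average of the rest by 1 or more on the log2 scale and had an adjusted p below 0.05 (limma, with the animal as a block). Under median-ratio scaling the liver count was 29 and the lung count 4.

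Liver, the site of HEPC, led for 5 of 11 genes of iron uptake and transport, 3 of 10 of haem and haemoglobin recycling, 2 of 12 of hepcidin control and 1 of 8 of iron sensing. Transferrin (TRFE), which delivers iron to TFR1, reached 8349 ± 3456 TPM (SD, n = 10) there and 19.0 ± 27.0 in kidney, the next tissue. Haptoglobin (HPT, 7070 ± 2795) and haemopexin (HEMO, 4279 ± 930), which capture free haemoglobin and haem, and the ferroxidase ceruloplasmin (CERU, 699 ± 342) rose in liver too. So did 3 regulators of hepcidin: transferrin receptor 2 (TFR2, 277 ± 50.9 TPM), haemojuvelin (RGMC, 135 ± 33.7) and matriptase-2 (TMPS6, 114 ± 19.4). The adjusted p of these 7 genes in liver lay between 1.8e-40 and 1.2e-27 in limma.

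Spleen, the site of most HMOX1 and S40A1, led for 5 of 10 genes of haem and haemoglobin recycling. Among them were the biliverdin reductases BLVRB (1054 ± 278 TPM, SD, n = 10) and BIEA (126 ± 24.8), which act on the product of HMOX1. The haemoglobin scavenger receptor C163A (583 ± 343) and the haem transporter HRG1 (136 ± 71.9) rose as well. NRAM1, a metal transporter of the macrophage phagosome, held 286 ± 95.9 TPM, and SPIC, a transcription factor of red pulp macrophages, 362 ± 133 TPM against 2.50 ± 0.882 in lung. HEM0, the first enzyme of haem synthesis in red cell precursors, averaged 1038 ± 737 TPM and was at 2.01 ± 2.04 TPM in heart, the next tissue. The largest adjusted p of these 7 genes was 1.6e-13 (limma).

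Heart, where TFR1 was highest, led for 5 of 19 genes of mitochondrial iron-sulphur assembly, namely ACPM (952 ± 288 TPM), ISCA1 (299 ± 58.9), BOLA3 (142 ± 41.3), NFU1 (76.2 ± 24.9) and frataxin (FRDA, 21.5 ± 7.11), each with a limma adjusted p of 5.4e-08 or less. Kidney, where BOLA2 and TRFL were highest, led for the cytosolic assembly factors CPIN1 (54.3 ± 14.9 TPM, n = 9) and NUBP2 (41.1 ± 8.27), for the constitutive haem oxygenase HMOX2 (245 ± 80.2) and for STEA1 (3.69 ± 3.71), with a limma adjusted p of 5.2e-08 or less. GLRX3, the glutaredoxin partner of BOLA2, had its highest mean in lung (175 ± 25.4 TPM) and the next in kidney (154 ± 19.0), and at 0.60 ± 0.07 above the average of the other tissues lung missed the size that counted as higher. Lung led for 6 of 12 genes of hepcidin control, among them STAT3 (83.3 ± 32.9 TPM, nearly level with liver at 83.3 ± 61.3), and for lipocalin-2 (NGAL, 248 ± 97.6) and EPAS1 (346 ± 134). Of all genes 26.6% were higher in lung, and the lung count of the further iron genes fell under median-ratio scaling.

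**Figure D4:**
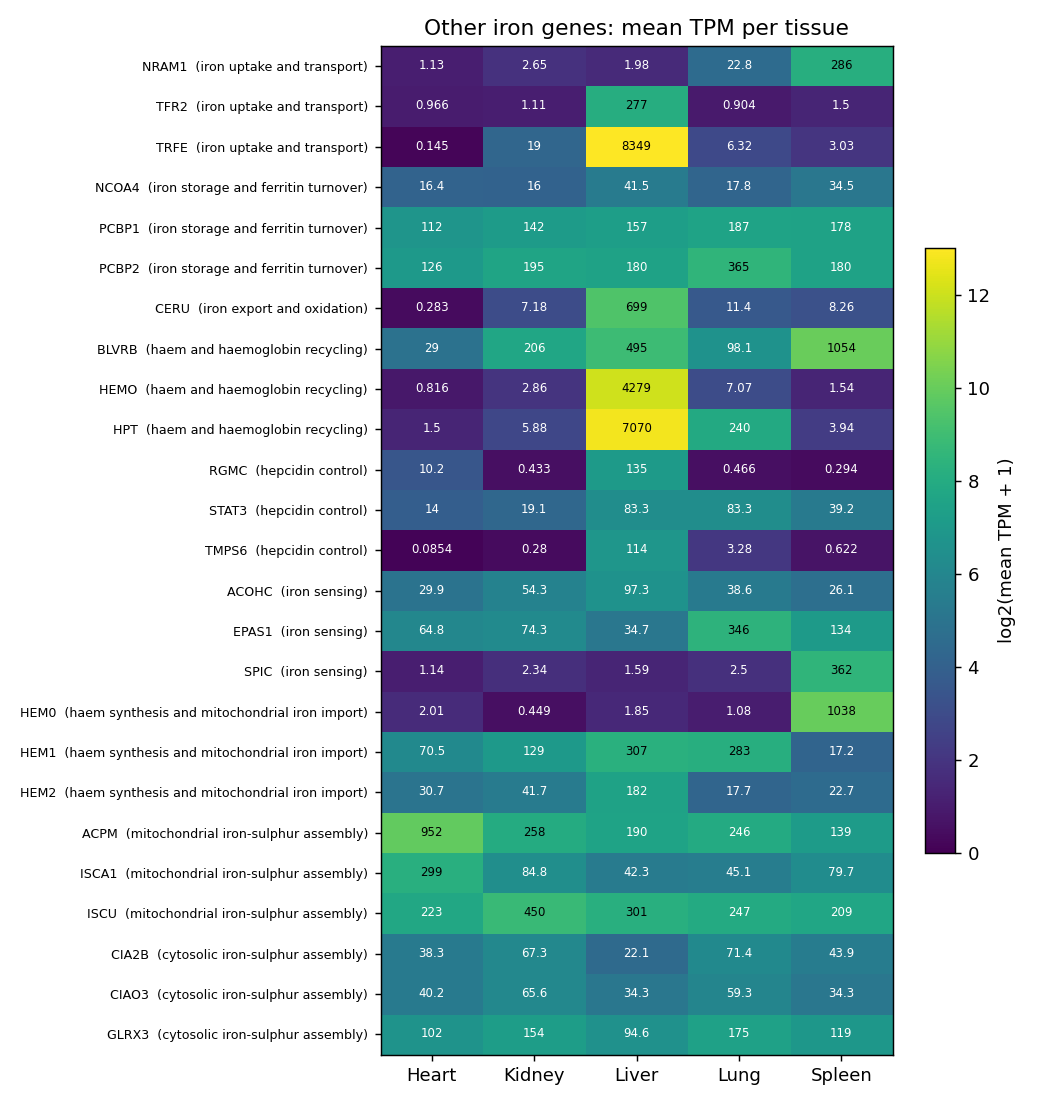
Mean TPM in each tissue (n = 10 animals, kidney n = 9) of the 3 most abundant measured genes in each list of further iron genes, or all where a list holds fewer; the number in a cell is the mean and the colour its log2(mean TPM + 1). TRFE, HPT and HEMO are at 4279 TPM or more in liver, and HEM0, SPIC, NRAM1 and BLVRB have their highest means in spleen.

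Between the types, 19 of 85 of these iron genes passed in spleen (22.4%, against 22.2% of all genes), 18 lower and 1 higher in the ET type, and their median log2 difference of -0.46 was like the -0.47 of all genes. NF2L2, which turns on HMOX1 and ferritin genes under stress, fell from 58.2 ± 7.08 TPM in L-type to 32.8 ± 5.12 TPM in ET-type spleens (SD, n = 5 each; log2 difference -0.81 ± 0.16, limma adjusted p = 0.023). BACH1, the repressor of HMOX1, was lower as well (4.59 ± 1.86 against 1.74 ± 0.633 TPM, limma adjusted p = 0.030). Also lower were BMP6, which induces hepcidin (-1.83 ± 0.47), the iron transporter NRAM2 (-1.27 ± 0.29), CERU (-1.09 ± 0.27), CLPX (-0.89 ± 0.23) and the haem synthesis enzyme PPOX (-0.70 ± 0.18), with limma adjusted p between 0.025 and 0.029. ID1, a target of BMP signalling, was higher, at 43.1 ± 14.9 against 22.4 ± 3.83 TPM (0.86 ± 0.23, limma adjusted p = 0.031). None of the 19 genes of mitochondrial iron-sulphur assembly passed as deposited. The count of 19 was 4 under median-ratio scaling, where ID1 and 3 genes of mitochondrial iron-sulphur assembly (ACPM, GLRX5 and ISCU) passed, and 6 with haemoglobin left out; 2.69% and 7.84% of all genes passed in these settings. It was 0 without ET-type S0326, L-type S0377 or L-type S0385, 1 without ET-type S0276, 2 without L-type S0384 and 11 without ET-type S0242. The calls over all genes fell with it, from 5339 to 112, 41, 50, 254, 730 and 2600 in the same order. Lymphocyte markers of the spleen summed to 149 to 383 TPM in the ET type and 281 to 1054 TPM in the L type, and their part was not tested.

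In the other tissues none of these genes passed in limma. An unadjusted p below 0.05 was reached by 25 of 81 in heart (30.9%, against 22.2% of all genes), 3 of 83 in kidney (3.61% against 8.7%), 5 of 87 in liver (5.75% against 6.58%) and 12 of 85 in lung (14.1% against 16.2%). Heart ID1 was 74.9 ± 25.0 TPM in the ET type and 28.0 ± 12.04 in the L type (limma adjusted p = 0.086), and the haem synthesis enzyme HEM2 was 21.6 ± 4.84 and 39.8 ± 9.95 TPM (limma adjusted p = 0.086). Without ET-type S0242, 9 iron genes passed in heart, where 10.2% of all genes then passed. Lung HMOX2, the constitutive counterpart of HMOX1, was 54.9 ± 6.02 and 81.6 ± 4.70 TPM (limma adjusted p = 0.077), and MFRN2 58.7 ± 9.32 and 96.6 ± 24.6 (limma adjusted p = 0.16, passing without L-type S0377). In liver MFRN1, which carries iron into mitochondria, was 70.6 ± 35.6 and 29.9 ± 7.94 TPM (limma adjusted p = 0.46), and SOCS3 1.89 ± 0.531 and 7.21 ± 6.12 TPM (0.66). In kidney SMAD6 was 6.19 ± 0.782 and 11.2 ± 1.81 TPM and EPAS1 52.8 ± 11.3 and 91.4 ± 24.5 TPM, both with an adjusted p of 0.57 in limma.

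The entries whose pattern over the 49 libraries was most like that of each gene were found by Pearson's r on log2(TPM + 1). Libraries of one tissue share their organ and those of one animal their animal, so r is a description only. HEPC was closest to CPN2 (r = 0.99), ZNT10 and TFR2 (0.99 each). HMOX1 was closest to TESK2 (0.97), LY9 and RNT2 (0.96 each), and FRIL to OCEL1 (0.94), LGMN (0.92) and BLVRB (0.91). S2539 had LGMN (0.87) and BLVRB (0.86) at the top of its list as well. FRIH was closest to RAB32 (0.89), TFR1 to NDUC2 (0.89), S40A1 to HS3SA (0.90) and TRFL to NHRF4 (0.85). BOLA2 was closest to the ribosomal protein RL38 (0.82), CSN9 (0.82) and the ribosomal protein RS28 (0.81). After the mean of each tissue and type was subtracted, HMOX1 was closest to MAF (0.84), S40A1 to MA1A1 (0.83) and BOLA2 to the mitochondrial NDUB2 (0.82).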

How the data were processed

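Poly(A) RNA of 5 tissues from 10 minipigs was measured in 50 libraries. The authors deposited TPM of 57085 assembled transcripts, each column summing to 1000000, and a text annotation with the best Swiss-Prot match of each transcript; Trimmomatic 0.36, Salmon 1.10.0 and the build Sscrofa11.1 are listed, per the submitters' processing notes. Which assembler and annotation tool were used is not given in the sources used here, and read depth is unknown. A gene is the summed TPM of all transcripts with one entry name, so close relatives are pooled and fragments counted together, and transcripts without an entry were kept singly.

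The types were compared within a tissue, 5 against 5 animals and 4 against 5 in kidney. The fit was limma's (version 3.58.1, R 4.3.3), with an empirical Bayes trend, on log2(TPM + 1). Genes averaging 1 TPM or more entered it. A gene passed if its p, adjusted by Benjamini-Hochberg over all genes tested, was below 0.05. Tissues were compared in 49 libraries with the animal, named in the titles, as a fixed block. The animals are separate, so p-values of the type fits measure the spread between animals. Those of the tissue fit measure the spread left once the level of each animal is taken out. The fits were tested on simulated data with 200 genes changed. Tables and figures used Python 3.11.15 (matplotlib 3.10.9, numpy 2.4.6, pandas 2.3.3) and the R package data.table (version 1.17.8).

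The 9 genes, the 95 further iron genes and the marker lists were chosen with earlier results of these data known. Named are all 9 genes. Of the further iron genes, the rule names those that passed in each tissue (8 at most, smallest p first) or the 2 with the smallest p, and per list the 3 most abundant, plus those higher in a tissue where their list has at most 5. Likeness used entries with a mean of at least 5 TPM. Some entries that the likeness rule names are not reported here. Settings varied were the pseudocount (0.1), the filter (none, or 5 TPM on average), median-ratio scaling, haemoglobin (6 entries) or mitochondrially encoded entries (9) left out, matches of at least 80% identity, all 49 libraries in 1 fit, kidney S0235 kept and 1 animal left out at a time. The longest match alone and the share of short transcripts were chosen after seeing the data.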

Additional observations from a re-analysis of the deposited data

Results flagged for a closer look

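Of 75 groups of 4 or 5 libraries, 9 held a library whose gap to its nearest neighbour was large for the range of its group (Dixon's ratio on TPM). Chance gives about 1 in 20 groups only where groups are independent and values normally distributed. The same animals recur here and TPM need not be normal, so the 9 groups are not set against that rate. HMOX1 accounted for 5 of them. It was low in the heart of ET-type S0242 (2.147 TPM), and high in the kidney of S0242 (60.22 TPM), the liver of ET-type S0309 (65.82 TPM), and the liver (84.61 TPM) and lung (129.5 TPM) of L-type S0385. S40A1 was also high in the S0242 kidney (40.21 TPM). FRIL was high in the spleen of ET-type S0235 (36552 TPM), HEPC in the liver of ET-type S0326 (762.9 TPM) and FRIH in the heart of L-type S0377 (1130 TPM), in a group that otherwise lay between 1046 and 1070 TPM.

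The types differed in opposite directions for S2539: every ET-type lung was below every L-type lung (log2 difference -0.38) and every ET-type spleen above every L-type spleen (1.33). That the lung and spleen differences are unequal was not tested.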

How the results depend on the processing

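Of 702 values of the 37 type differences of the 9 genes under other settings, 690 moved by less than the spread between animals and 12 moved further; 34 values, in 16 of the differences, took another sign. BOLA2 and S2539 in spleen, S2539 in lung, TRFL in kidney, TFR1 in liver, and BOLA2 and HMOX1 in heart kept their sign under all settings that gave them a value. Among the further iron genes, the number passing in spleen, 19, became 4 under median-ratio scaling and 6 with haemoglobin left out, and ran from 0 to 23 with 1 animal left out at a time. In heart it ran from 0 to 9 and in lung from 0 to 1, and the cause was not tested. Under median-ratio scaling, 29 instead of 17 genes were higher in liver and 4 instead of 15 in lung. With all 49 libraries in 1 fit and the animal as replicate block, 3 genes passed in heart, 1 in liver and 1 in lung instead of 0, and 16 in spleen. Of all genes, 2.77%, 1.31%, 2.91% and 20.7% passed there. That fit still compares the types between animals and pools the spread over all tissues. TRFL passed in kidney in that fit alone, where 0.693% of all genes passed. It was chosen with its type difference known, so nothing is read from this. The correlation of libraries of one animal was 0.124 in that fit. TPM without read counts leaves the precision of low values, such as TRFL outside the kidney and HEPC outside the liver, unknown.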
